A study of Arabidopsis thaliana with 10 samples.

Results

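Seedlings that retained PIF3 were compared with seedlings that retained PIF4, each as the only intact gene of PIF1, PIF3, PIF4 and PIF5, which encode PHYTOCHROME INTERACTING FACTORS. The members are the 6 libraries in columns A, B and C of 2 genotypes, out of 30 libraries in the whole series: 3 of the triple mutant pif145 (pif1 pif4 pif5, PIF3 intact) and 3 of the triple mutant pif135 (pif1 pif3 pif5, PIF4 intact). Both triple mutants lack PIF1 and PIF5, so the genotypes differ only in which of PIF3 and PIF4 is intact, as far as the labels say. The quadruple mutant pifq, with none of the 4 genes intact, and wild type (WT) were used to place the levels, and the single mutants pif3 and pif4 were used as a second view of the same genes. The triple mutants pif345 (PIF1 intact) and pif134 (PIF5 intact, by the label) and the single mutants pif1 and pif5 entered the fit, which used all 30 libraries, and their levels are given for a few genes. All were Arabidopsis thaliana of the Columbia background. Whole seedlings 2 days old were harvested after 48 h in darkness at 21 °C, after seeds had been given white light for 3 h and then far-red light for 15 min. The labels do not name the mutant alleles or say how many independent lines stand behind a genotype, and each genotype may be 1 line. They call the 3 libraries of a genotype biological replicates.

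PIFs are basic helix-loop-helix transcription factors that accumulate in darkness and keep a seedling in its etiolated form, with a long hypocotyl, closed cotyledons and undeveloped chloroplasts. Active phytochromes bind them and set off their removal, after which the seedling greens. PIFs bind the G-box, CACGTG, and the related PBE-box, CACATG, and the family members overlap in function. PIF3 is best known from de-etiolation and the control of chlorophyll and chloroplast genes, and PIF4 from growth in shade and warmth, where it acts on auxin synthesis and auxin response genes.

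Reads came from the 3′ ends of polyadenylated RNA, so a transcript gives about the same number of reads whatever its length, and CPM, read counts scaled to library size, can be read as transcript levels. Depth was 28367200, 20821424 and 19522320 reads in pif145 A, B and C, and 24833327, 40767528 and 24302317 reads in pif135 A, B and C. Replicates differed by far more than counting error, with a chi-square per degree of freedom between 69.95 and 183.9. No column was thus only a second count of the same library. These values do not show whether the replicates came from separately grown seedlings. Because these are whole seedlings, fewer cells of a type and less RNA per cell cannot be told apart. Library pif145 C and library pif135 A stood apart from the other 2 of their genotype. A list of 13 stress and detoxification genes summed to 357, 326 and 2022 CPM in pif145 A, B and C, against 1149, 148 and 124 CPM in pif135 A, B and C. A list of 13 genes of the low-oxygen response summed to 2209, 1638 and 174 CPM in pif145 A, B and C, against 801, 693 and 429 CPM in pif135 A, B and C. Both lists were written after the libraries had been seen. For gene lists, the lowest and highest median over the 6 fits that each leave out 1 library are given beside the median, over the members tested with all libraries.

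**Figure D1:**
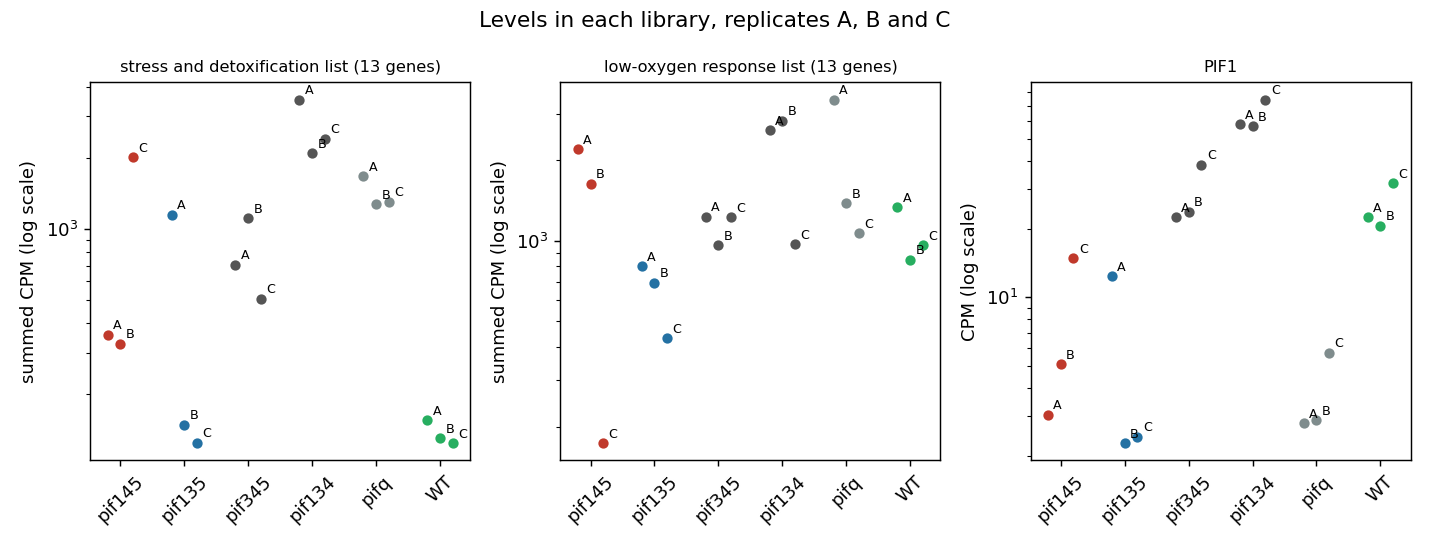
Summed CPM of the stress and low-oxygen lists and the CPM of PIF1 in each library of 6 genotypes, on log axes, with a point per library and its replicate letter. In the stress list, pif145 C at 2022 CPM and pif135 A at 1149 CPM lie above the other 2 libraries of their genotype, and the same libraries are highest for PIF1.

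The targeted genes were examined first. PIF3 had 90.2, 95.2 and 129.5 CPM in pif145, against 2.75, 1.35 and 2.51 CPM in pif135, and the WT mean was 73.8 CPM. The 2 genotypes were thus far apart at the locus that separates them, by a log2 fold change of pif145 over pif135 of 5.59 ± 0.36 (SE, adjusted p = 6.09e-11). Fold changes, standard errors and p-values come from edgeR's quasi-likelihood test, with p adjusted over all tested loci by the Benjamini-Hochberg method. PIF4 had 24.7, 39.2 and 61.7 CPM in pif145, against 50.8, 72.9 and 64.1 CPM in pif135. These ranges overlapped, and the difference of -0.58 ± 0.33 did not pass the test (95% interval -1.26 to 0.09, adjusted p = 1). Both genotypes were above the WT mean of 11.7 CPM, and pifq, which also lacks PIF4, averaged 46.2 CPM. Reads from a 3′ end can persist when a mutation lies elsewhere in a gene, so the PIF4 reads do not check the pif4 label. PIF5 had 0.276, 0.379 and 0.106 CPM in pif145, against 0.219, 0.499 and 0.243 CPM in pif135, all far below the WT mean of 7.13 CPM. PIF1 had 3.04, 5.07 and 14.9 CPM in pif145, against 12.4, 2.28 and 2.43 CPM in pif135. The highest PIF1 value of each genotype came from pif145 C and pif135 A, the libraries that stood apart, and the WT mean was 25.0 CPM. The PIF1 difference was 0.43 ± 0.58 (adjusted p = 1), and it was -0.47 without pif145 C.

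Few transcripts separated the 2 genotypes. Of 18680 loci tested, 21 were called at an adjusted p under 0.05, or 0.112% of those tested. Of these, 13 were higher in pif145 (0.0696%) and 8 were lower (0.0428%). All 21 differed by more than 2-fold, with absolute log2 fold changes of 1.099 to 5.59, and in all 21 the 3 pif145 values lay entirely above or entirely below the 3 pif135 values. Across all tested loci, 3.00% had every pif145 library above every pif135 library and 4.72% had every pif145 library below. An unadjusted p under 0.05 was reached by 710 loci, 294 higher and 416 lower in pif145. The median log2 fold change over all loci was -0.01, with a median SE of 0.32, so differences well under 2-fold could rarely pass the test. The fit was repeated with libraries of the same replicate letter treated as matched, as a block within each set of libraries (triple mutants with pifq, and single mutants with WT). In that fit 48 loci were called, 24 in each direction, among them all 21. With only the 6 libraries in the fit, and so fewer libraries from which to estimate the spread, 3 were called: PIF3, ELIP1 and ELIP2.

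**Figure D2:**
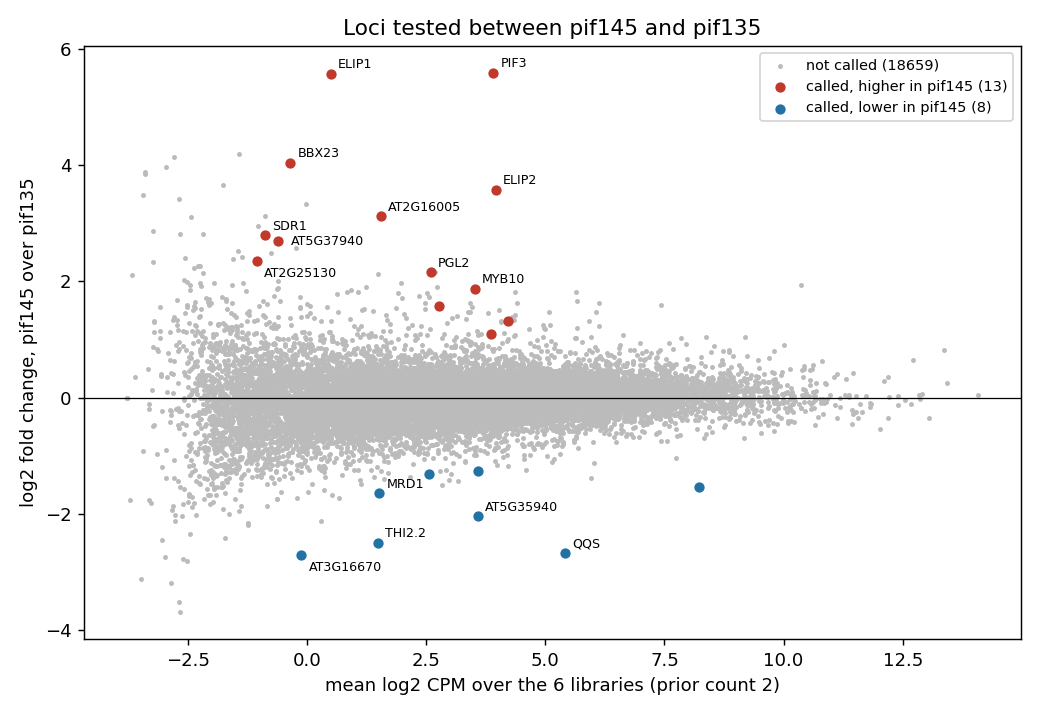
Log2 fold change of pif145 over pif135 against the mean log2 CPM over the 6 libraries, with a point per tested locus. The 13 loci called higher in pif145 are red, the 8 called lower are blue, and PIF3 and ELIP1 stand highest among the called loci, at 5.59 and 5.58.

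Among called loci and apart from PIF3 itself, the largest rises were in a pair of light-inducible chloroplast genes and in a B-box gene. ELIP1 and ELIP2 encode early light-inducible proteins, chlorophyll-binding proteins of the thylakoid that protect greening plastids from excess light. BBX23 encodes a B-box zinc finger protein that acts with the light-signalling factor HY5 in seedlings. The 300 bases before the annotated start of these genes, and of a further gene that rose, AT2G16005, are shown because the G-box is the best known PIF binding site, and 2 of the 4 windows hold it. Each is written 5′ to 3′ on the strand of the gene, from the TAIR10.1 assembly, with the motif in capitals.
ELIP1: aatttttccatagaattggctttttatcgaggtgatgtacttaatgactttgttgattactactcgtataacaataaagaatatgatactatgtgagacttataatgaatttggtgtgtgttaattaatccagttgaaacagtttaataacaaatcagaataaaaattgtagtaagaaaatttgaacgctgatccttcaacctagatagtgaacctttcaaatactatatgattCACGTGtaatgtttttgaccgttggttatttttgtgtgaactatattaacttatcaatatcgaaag
AT2G16005: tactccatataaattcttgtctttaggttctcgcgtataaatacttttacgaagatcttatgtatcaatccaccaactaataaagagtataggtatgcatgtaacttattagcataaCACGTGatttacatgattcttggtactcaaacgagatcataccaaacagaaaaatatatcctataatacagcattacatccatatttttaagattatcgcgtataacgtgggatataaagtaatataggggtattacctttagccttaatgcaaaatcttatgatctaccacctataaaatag
ELIP2: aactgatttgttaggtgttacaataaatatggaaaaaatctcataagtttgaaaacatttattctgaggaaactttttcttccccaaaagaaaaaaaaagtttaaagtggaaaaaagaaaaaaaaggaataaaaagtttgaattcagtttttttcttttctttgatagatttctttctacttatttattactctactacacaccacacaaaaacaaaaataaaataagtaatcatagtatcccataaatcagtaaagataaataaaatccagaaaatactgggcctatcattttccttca
BBX23: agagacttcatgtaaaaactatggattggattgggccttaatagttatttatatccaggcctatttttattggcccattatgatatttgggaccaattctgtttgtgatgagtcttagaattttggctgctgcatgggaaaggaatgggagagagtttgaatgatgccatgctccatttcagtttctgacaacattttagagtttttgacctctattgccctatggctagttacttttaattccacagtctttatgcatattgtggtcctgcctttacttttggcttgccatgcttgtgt
The windows are chr3:8085670-8085969 (minus strand) for ELIP1, chr2:6960217-6960516 (minus strand) for AT2G16005, chr4:8417942-8418241 (plus strand) for ELIP2 and chr4:6369951-6370250 (minus strand) for BBX23. The G-box began 66 bases before the start of ELIP1 and 183 bases before that of AT2G16005. Both strands were searched for CACGTG, which reads the same on either, and for CACATG, which reads CATGTG on the other. With PIF3 left out, 2 of the 12 other genes that rose held a G-box in this window, or 16.7%, against 8.25% of 18328 tested protein-coding loci. The PBE-box was in 1 of the 12, CEL2, 45 bases before its start, against 13.2% of all. Of the 8 genes that fell, none (0) held a G-box and 1, LUP1, held a PBE-box, 93 bases before its start.

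ELIP1 had 7.42, 8.34 and 8.85 CPM in pif145, against 0.175, 0.166 and 0.162 CPM in pif135. The pif145 libraries were close to each other and rested on 531 reads in all, while pif135 gave 15 reads over its 3 libraries. The log2 fold change was 5.58 ± 0.37 (adjusted p = 6.09e-11). ELIP2, expressed at a higher level, had 58.1, 49.2 and 54.9 CPM in pif145, against 5.16, 3.26 and 5.22 CPM in pif135. Its pif145 mean was 54.1 ± 4.54 CPM and its pif135 mean 4.54 ± 1.12 CPM (SD, n = 3 each), a log2 fold change of 3.58 ± 0.35 (adjusted p = 5.18e-07). BBX23 had 1.97, 3.08 and 3.496 CPM in pif145, against 0.306, 0.166 and 0.0405 CPM in pif135. The groups were far apart but the gene was scarce, with 181 reads in pif145 and 15 in pif135, and its log2 fold change of 4.04 had an SE of 0.62 (adjusted p = 0.00127). PIF3, ELIP1 and ELIP2 kept their call in every one of the 18 other fits that were run. BBX23 lost its call only in the 2 fits restricted to the 6 libraries.

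These 3 genes were the only called members of a list of 40 photoreceptor and light-signalling genes, of which 38 were tested. The median log2 fold change of the list was 0.06 (-0.05 to 0.17 when 1 library was left out), with 22 members above 0 and 16 below. The photoreceptor genes PHYA and PHYB lay at 0.21 and -0.22, CRY1 at 0.03, and COP1, whose product marks light-signalling factors for degradation, at -0.03. HY5, which encodes a bZIP factor that promotes greening, had 26.8, 28.7 and 16.5 CPM in pif145, against 12.985, 14.186 and 10.48 CPM in pif135. Every pif145 library was above every pif135 library, yet the difference of 0.94 ± 0.24 did not pass the test (adjusted p = 0.284). HY5 was called with the replicate block within sets (adjusted p = 0.0146) and with the block on the 15 libraries of triple mutants and pifq (0.0335), not with the block over all libraries (0.169). The block on the 6 libraries alone called none (0) of the genes described here as called under a block, and the gene is given here after its values were seen. BBX20, a B-box relative, was at 0.94 and did not pass the test. GLK1 and GLK2, which promote chloroplast genes, were at -0.76 and -0.33, and did not pass it either.

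The other genes that rose encode proteins of varied function. PGL2, a 6-phosphogluconolactonase of the pentose phosphate pathway, had 9.91, 12.9 and 15.3 CPM in pif145, against 3.06, 2.78 and 2.71 CPM in pif135, a log2 fold change of 2.15 ± 0.27 (adjusted p = 4.91e-05). MYB10, a MYB transcription factor gene, had 24.8, 17.5 and 23.8 CPM in pif145, against 6.12, 4.75 and 7.20 CPM in pif135, a log2 fold change of 1.88 ± 0.24 (adjusted p = 5.45e-05). Both were well separated in level and kept their call whichever of the 6 libraries was left out. AT2G16005, annotated as an MD-2-related lipid recognition protein, had 7.03, 4.03 and 16.5 CPM in pif145, against 1.53, 0.665 and 1.01 CPM in pif135. Its highest value came from pif145 C, and its log2 fold change was 3.12 ± 0.50 (adjusted p = 0.00167), between 2.41 and 3.47 over the other fits. CEL2, a cellulase gene, had 15.4, 14.8 and 6.36 CPM in pif145, against 4.72, 4.11 and 3.44 CPM in pif135, with pif145 C the lowest of its genotype. Its log2 fold change was 1.58 ± 0.27 (adjusted p = 0.00388).

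FLP1, named for its likeness to the flowering-promoting factor FPF1, had 25.9, 32.1 and 30.1 CPM in pif145, against 9.05, 12.9 and 13.2 CPM in pif135 (log2 fold change 1.32 ± 0.27, adjusted p = 0.0335). GRF7, a growth-regulating factor gene, had 22.3, 20.9 and 21.3 CPM in pif145, against 13.3, 9.41 and 7.45 CPM in pif135 (1.099 ± 0.22, adjusted p = 0.033). These were the smallest rises among the called genes. The remaining rises fell below the level of 5 CPM that was asked of a named gene and are given because they complete the 13. SDR1, a short-chain dehydrogenase gene, had 1.18, 1.37 and 0.953 CPM in pif145, against 0.219, 0.0713 and 0.243 CPM in pif135 (2.79 ± 0.56, adjusted p = 0.033). AT5G37940, annotated as a zinc-binding dehydrogenase, had 1.70, 0.900 and 1.80 CPM in pif145, against 0.394, 0.119 and 0.202 CPM in pif135 (2.69 ± 0.45, adjusted p = 0.00304). AT2G25130, an armadillo-repeat protein gene, had 0.869, 1.23 and 0.583 CPM in pif145, against 0.219, 0.119 and 0.202 CPM in pif135 (2.35 ± 0.46, adjusted p = 0.0283).

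Leaving out 1 library at a time cost 6 of the 13 rises their call in at least 1 fit, and none (0) of the 13 changed direction. CEL2 was not called without pif145 A, without pif145 B or without pif135 C, with log2 fold changes of 1.37 to 1.99 over all other fits. SDR1 and AT2G25130 were not called without pif145 A, pif145 B, pif135 B or pif135 C, over ranges of 2.34 to 3.13 and 2.06 to 2.73. AT5G37940 was not called without pif135 B, over a range of 2.31 to 3.22. Among these 6 fits GRF7 was called only in the one without pif135 A, and FLP1 in none (0), over ranges of 0.94 to 1.36 and 1.15 to 1.43.

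The 8 genes that fell in pif145 are given next, with what each encodes where that is known. QQS, an orphan gene known for its effect on starch content, had 16.5, 19.5 and 16.4 CPM in pif145, against 69.3, 91.6 and 171.9 CPM in pif135, a log2 fold change of -2.67 ± 0.33 (adjusted p = 3.91e-05). THI2.2, a thionin gene of the plant defence peptides, had 1.42, 1.09 and 0.953 CPM in pif145, against 7.43, 7.25 and 5.02 CPM in pif135 (-2.50 ± 0.39, adjusted p = 0.0015). AT5G35940, annotated as a mannose-binding lectin, had 7.11, 8.34 and 3.07 CPM in pif145, against 19.1, 31.4 and 26.0 CPM in pif135 (-2.04 ± 0.31, adjusted p = 0.00122). These 3 falls kept their call whichever of the 6 libraries was left out. AT3G16670, of the pollen Ole e 1 and extensin family, had 0.276, 0.189 and 0.530 CPM in pif145, against 1.92, 2.02 and 2.55 CPM in pif135 (-2.71 ± 0.48, adjusted p = 0.00802). AT3G05730, annotated as a defensin-like protein, was the most abundant called gene, with 165, 290 and 103 CPM in pif145, against 411, 730 and 475 CPM in pif135 (-1.53 ± 0.31, adjusted p = 0.0335).

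MRD1 had 1.54, 1.37 and 1.85 CPM in pif145, against 5.77, 3.66 and 5.54 CPM in pif135 (-1.65 ± 0.31, adjusted p = 0.0158). LUP1, which encodes a lupeol synthase of triterpene metabolism, had 3.59, 3.98 and 3.44 CPM in pif145, against 10.3, 8.74 and 8.46 CPM in pif135 (-1.32 ± 0.27, adjusted p = 0.033). AT3G21480, a BRCT-domain protein gene, had 8.29, 7.34 and 8.53 CPM in pif145, against 13.8, 13.9 and 30.2 CPM in pif135 (-1.26 ± 0.26, adjusted p = 0.0398). LUP1 was not called without any 1 of the 6 libraries, over a range of -1.38 to -1.18. MRD1 and AT3G16670 were not called without pif145 A, pif145 B or pif135 C, over ranges of -1.81 to -1.53 and -3.25 to -2.45. AT3G05730 was not called without pif145 A, pif145 C, pif135 B or pif135 C, over a range of -2.003 to -1.22. AT3G21480 was not called without pif145 A, pif145 B, pif145 C or pif135 C, over a range of -1.49 to -0.77.

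QQS and MRD1 varied widely across the other genotypes as well. MRD1 averaged 1.59 CPM in pif145, 4.99 in pif135 and 2.31 in the single mutant pif5, against 132 CPM in pifq, 115 in the libraries labelled pif134 and 103 in WT, although pifq also lacks PIF5. QQS averaged 17.45 CPM in pif145, 111 in pif135, 50.9 in pifq and 14.1 in pif4, against 1.07 in WT and 0.50 in the libraries labelled pif134, which also lack PIF4 by their label. Whether these 2 loci differ by seed line rather than by PIF genotype was not tested.

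**Figure D3:**
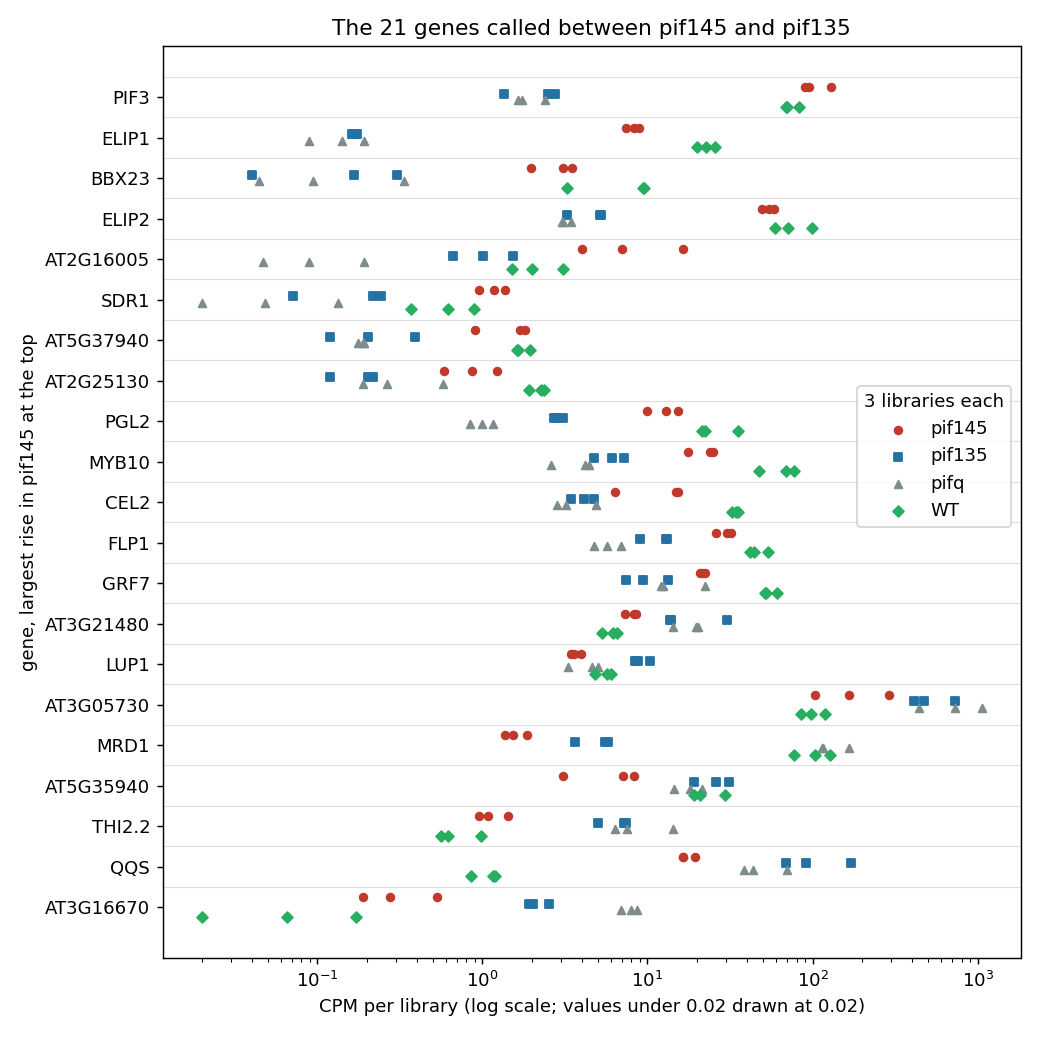
CPM of the 21 called genes on a log axis, with a point per library for pif145, pif135, pifq and WT, 3 libraries each. In all 21 rows the pif145 and pif135 points do not overlap, and for PIF3, ELIP1, BBX23 and ELIP2 the pif135 points lie with those of pifq.

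The called genes were then placed against pifq and WT, a comparison that shares no library with pif145 and pif135. In pifq against WT, 2835 loci were called (15.2%), 1339 lower in pifq (7.17%) and 1496 higher (8.01%). All 13 genes that rose in pif145 were among the 1339 that were lower in pifq. Of the 8 that fell in pif145, 5 were among the 1496 that were higher in pifq, and the other 3, MRD1, LUP1 and AT5G35940, were not called there. None (0) of the 21 was called in the same direction in both comparisons. This held for the fit of all libraries. Without pif135 A, a library that stood apart, 61 loci were called higher in pif145, and 48 of those were also higher in pifq. PIF3 is mutated in pif135 and in pifq, which fixed its direction. Without it, all 12 other rises were lower in pifq and 17 of 20 called genes were called in the opposite direction there. The 17 include QQS, for which a difference by seed line was not tested. The median log2 fold change of pif145 over pif135 was -0.06 over the 1339 loci lower in pifq and 0.08 over the 1496 higher in pifq. Of the 1339, 5.004% had every pif145 library above every pif135 library, and 8.589% had every pif145 library below. Of the 1496, these shares were 1.671% above and 6.551% below. The 1339 as a set thus did not share the direction of the 13 rises.

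Of the 13 genes that rose, 11 were called above pifq in pif145, where 0.444% of all loci were (0.551% in either direction), the exceptions being GRF7 and AT2G25130, or 10 of 12 without PIF3, which is mutated in pifq. Only 2 of the 13, AT2G16005 and PGL2, were called above pifq in pif135, where 0.509% of all loci were (0.696% in either direction). These contrasts share libraries with the comparison that chose the genes and with each other, so the counts describe the levels and test nothing further. ELIP1 was higher in pif145 than in pifq by 5.83 ± 0.39, and in pif135 it differed from pifq by 0.25 ± 0.53 (adjusted p = 0.921). ELIP2 was higher in pif145 than in pifq by 4.09 ± 0.36, and in pif135 it differed from pifq by 0.51 ± 0.34 (adjusted p = 0.585). BBX23 was higher in pif145 than in pifq by 4.15 ± 0.66, and in pif135 it differed from pifq by 0.11 ± 0.84 (adjusted p = 0.981). PGL2 was higher than in pifq in both, by 3.67 ± 0.30 in pif145 and by 1.51 ± 0.30 in pif135 (adjusted p = 0.0127). In 10 of the 13 the pif145 mean lay between pifq and WT. In the other 3, PIF3, AT2G16005 and SDR1, it was above WT.

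Of the 8 genes that fell, 7 were called below pifq in pif145, against 0.107% of all loci, the exception being LUP1. In pif135, MRD1 and AT3G16670 were called below pifq, against 0.187% of all loci, and LUP1 was called above it. THI2.2 averaged 1.15 CPM in pif145, 6.57 CPM in pif135 and 9.42 CPM in pifq, against 0.722 CPM in WT. AT3G05730 averaged 186 CPM in pif145, 539 CPM in pif135 and 741 CPM in pifq, against 101 CPM in WT. Over the 8, the pif145 mean lay between pifq and WT in 5 and below WT in 3, and the pif135 mean lay above pifq in 4 and below it in 4.

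The levels in all 10 genotypes set the same genes beside further combinations of intact PIFs. ELIP1 averaged 8.20 CPM in pif145, 0.168 CPM in pif135, 12.2 CPM in pif345, which keeps PIF1, and 0.590 CPM in the libraries labelled pif134, which keep PIF5 by their label, with 0.141 CPM in pifq and 22.7 CPM in WT. The neighbours pif135 and pifq in that order did not differ beyond their spread. In the single mutants the ELIP1 mean was 41.5 CPM in pif1, 12.3 CPM in pif3, 17.7 CPM in pif4 and 13.9 CPM in pif5, all far above pif135. The libraries labelled pif134 had a PIF1 mean of 63.1 CPM, above the 25.0 CPM of WT. Every library of pif145 and pif135, which also lack PIF1, was below that WT mean. The label pif134 is thus in doubt, although 3′ reads alone do not settle it, and the values are given under that label only.

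**Figure D4:**
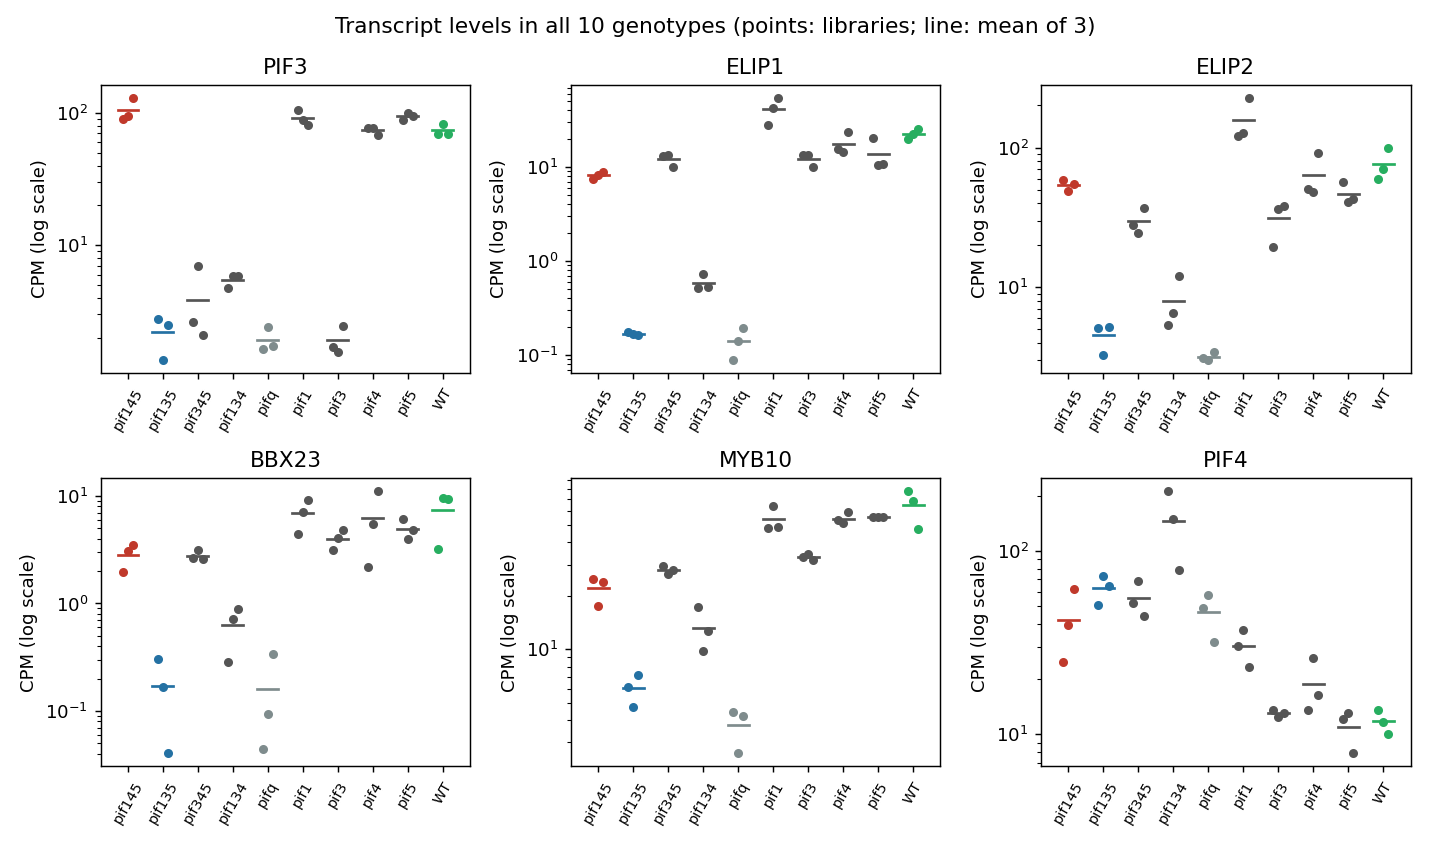
CPM of PIF3, ELIP1, ELIP2, BBX23, MYB10 and PIF4 in 10 genotypes on log axes, with points for libraries and a line at the mean of 3. For ELIP1, pif145 at 8.20 CPM and pif345 at 12.2 CPM have means below WT and far above pif135 at 0.168 CPM, which lies with pifq at 0.141 CPM.

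The single mutants ask a related question, since pif3 lacks PIF3 while the other PIFs are intact. In pif3 against WT, 21 loci were called (0.112%), and of the 13 genes that rose in pif145 only PIF3 was called, as lower in pif3 (0.0964% of loci were). PIF3 is itself mutated in pif3, and of the other 12 the fold change was below 0 for 10, beside 47.4% of all loci, with ELIP2 at -1.29 (adjusted p = 0.166), FLP1 at -1.22 (adjusted p = 0.0627), MYB10 at -0.97 (adjusted p = 0.128), BBX23 at -0.89 (adjusted p = 1) and ELIP1 at -0.88 (adjusted p = 0.436). None of these 5 passed the test. Of the 8 genes that fell in pif145, THI2.2 was called higher in pif3, at 2.07 (adjusted p = 0.0194, with 0.0161% of loci called higher). In pif4 against WT, 11 loci were called (0.0589%). QQS was called higher in pif4, at 3.71 (adjusted p = 6.17e-07, with 0.00535% of loci called higher), and AT5G35940 lower, at -2.12 (adjusted p = 0.000792, with 0.0535% called lower). None (0) of the 13 genes that rose in pif145 was called there, and without PIF3 the fold change was below 0 for 7 of the 12, beside 50.7% of all loci. The pif3 and pif4 comparisons share the WT libraries with each other and with pifq against WT.

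Lists of genes from pathways that PIFs are known to touch held few called members. Of 29 lists, only those of the targeted PIFs, of light signalling and of QQS and MRD1 had any in the edgeR fit of all libraries without a block. The list of QQS and MRD1 was written because both were known to vary among the genotypes of these data. The replicate blocks and DESeq2, also on all libraries, called members of further lists. SAUR genes encode small auxin-induced proteins that promote cell expansion, and 16 of 20 were tested. All 16 had log2 fold changes below 0, from -0.90 to -0.35, with a median of -0.63 beside -0.01 over all loci, and in 11 of the 16 every pif145 library was below every pif135 library (4.72% of all loci). None (0) was called, and 9 had an unadjusted p under 0.05. SAUR66 had 10.7, 11.6 and 10.7 CPM in pif145, against 18.1, 21.9 and 21.8 CPM in pif135, a difference of -0.90 ± 0.25 (adjusted p = 0.492). SAUR genes include near-identical copies whose reads the authors' counting could have split or dropped, and SAUR20, SAUR22 and SAUR24 had no reads in these 6 libraries, so the 16 are not independent measurements. Across the other scalings and leave-one-out fits the SAUR median stayed between -0.69 and -0.56.

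Genes of auxin synthesis and early auxin response gave 15 of 18 tested members below 0, with a median of -0.44 (-0.51 to -0.36 when 1 library was left out) and no (0) call. Every pif145 library was below every pif135 library in 6 of the 18 (4.72% of all loci). IAA19, an auxin-induced Aux/IAA repressor gene, had 22.2, 31.4 and 17.8 CPM in pif145, against 39.4, 64.1 and 40.2 CPM in pif135 (-1.01 ± 0.28, adjusted p = 0.502). IAA29, a PIF target of the same family, had 6.71, 3.08 and 3.92 CPM in pif145, against 11.9, 8.10 and 13.2 CPM in pif135. The groups did not overlap, and the difference of -1.27 ± 0.44 did not pass the test (adjusted p = 1), although it was called with the block within sets (adjusted p = 0.0239) and over all libraries (0.0385), not on the 15 libraries (0.19). IAA1 was called with the block within sets (-0.90, adjusted p = 0.043), not over all libraries (0.494) or on the 15 (0.257), and both are named after their values were seen. YUC8, an auxin synthesis gene that PIF4 is known to activate in warmth, had 6.48, 6.39 and 3.12 CPM in pif145, against 7.65, 9.01 and 6.39 CPM in pif135 (-0.53 ± 0.54). Of 17 tested shade and PIF target genes, which share members with the auxin list, 12 were below 0, with a median of -0.21 (-0.36 to -0.19).

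Within that list PIL1, a bHLH gene induced in shade, had 9.28, 7.10 and 8.90 CPM in pif145, against 15.5, 9.36 and 15.6 CPM in pif135 (-0.67 ± 0.26, adjusted p = 1). XTH15, a xyloglucan endotransglucosylase gene of the cell wall, went the other way, with 201, 261 and 365 CPM in pif145, against 163, 157 and 109 CPM in pif135 (0.95 ± 0.32, adjusted p = 0.962). Neither passed the test. With the range over the 6 fits that leave out 1 library in brackets, the PIF relatives (9 tested) had a median of -0.17 (-0.30 to -0.15) and the growth helix-loop-helix and brassinosteroid factors (12 tested) one of -0.23 (-0.32 to -0.24), where PRE6, a growth-promoting small HLH gene, was at -0.84 ± 0.38. The medians were -0.12 (-0.22 to -0.06) for brassinosteroid metabolism (9 tested), 0.03 (0.03 to 0.12) for gibberellin genes (19 tested), 0.17 (-0.06 without pif145 C to 0.41 without pif135 A) for ethylene genes (14 tested) and 0.00 (-0.12 to 0.09) for cell wall loosening and cellulose genes (21 tested). These lists had no (0) call. BR6OX1, of brassinosteroid synthesis, was at -0.64 ± 0.30, and ACS8, of ethylene synthesis, at -0.93 ± 0.43. GA3OX1, which makes active gibberellin, had 3.12, 3.84 and 3.18 CPM in pif145, against 7.13, 6.51 and 5.79 CPM in pif135 (-0.94 ± 0.26, adjusted p = 0.495). It was called with the block within sets (adjusted p = 0.04), not over all libraries (0.15) or on the 15 (0.317).

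**Figure D5:**
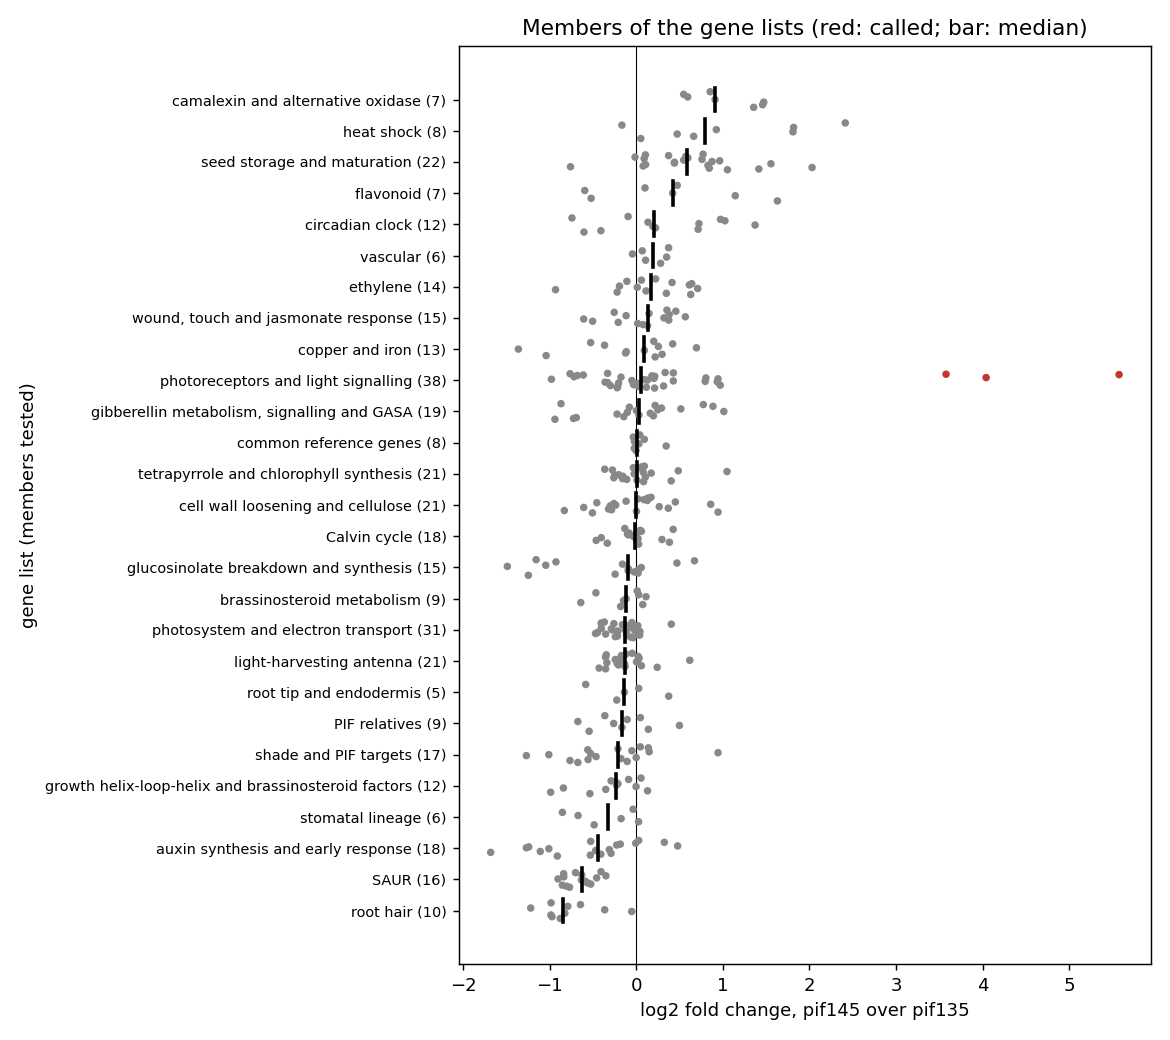
Log2 fold change of pif145 over pif135 for the tested members of 27 gene lists, a point per gene, with called genes in red and a bar at each list's median. The SAUR and root hair lists lie wholly below 0, and the 3 red points are ELIP2, BBX23 and ELIP1.

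Photosynthesis genes, which are repressed by PIFs in darkness, showed no called difference. The light-harvesting antenna genes (21 tested) had a median of -0.13 (-0.37 to -0.03 over the fits that leave out 1 library), the photosystem and electron transport genes (31 tested) one of -0.12 (-0.28 to -0.07) and the Calvin cycle genes (18 tested) one of -0.01 (-0.08 to 0.08). The lowest antenna and photosystem medians, -0.37 and -0.28, came without pif145 C, when 19 of 21 and 26 of 31 were below 0. Without both pif145 C and pif135 A they were -0.40 and -0.31. Summed antenna transcripts came to between 40944 and 77542 CPM in pif145 and between 55020 and 71349 CPM in pif135, ranges that overlap, against 6084 to 8201 CPM in WT. LHCB4.3 was at 0.62 ± 0.30, PSAK, a photosystem I subunit gene, at -0.47 ± 0.27 and RCA, Rubisco activase, at -0.46 ± 0.28, each with an adjusted p of 1. Tetrapyrrole and chlorophyll synthesis genes (21 tested) had a median of 0.01 (-0.06 to 0.10). PORA, the protochlorophyllide oxidoreductase of etiolated seedlings, had 923, 923 and 716 CPM in pif145, against 464, 473 and 301 CPM in pif135. The pif145 libraries were all higher, and the difference of 1.05 ± 0.26 did not pass the test (adjusted p = 0.238). It was called with the block within sets (adjusted p = 0.0215), not over all libraries (0.124) or on the 15 (0.0868). DESeq2, run without a block, also called PORA (1.06, adjusted p = 0.0254). PORA averaged 410 CPM in pifq.

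Seed storage and maturation genes (22 tested) had a median of 0.58, with 20 above 0 and none (0) called, and this median was -0.09 without pif145 B and 0.89 without pif145 C, the extremes over the 6 fits. OLEO3, an oil-body oleosin gene, had 44.1, 39.5 and 34.5 CPM in pif145, against 26.5, 19.2 and 18.7 CPM in pif135 (0.88 ± 0.23, adjusted p = 0.296). It was called with the block within sets (adjusted p = 0.0122) and on the 15 libraries (0.0191), not over all libraries (0.083). DESeq2, run without a block, also called OLEO3 (0.89, adjusted p = 0.0486). Clock genes (12 tested) had a median of 0.21 (0.17 to 0.43, the highest without pif135 C). In 4 every pif145 library was above every pif135 library (3.00% of all loci), and in 1 every one was below (4.72%). Their summed level went the other way, with 352, 352 and 325 CPM in pif145, against 369, 405 and 422 CPM in pif135. LUX, an evening-complex gene, had 15.7, 14.2 and 10.1 CPM in pif145, against 6.51, 7.37 and 6.47 CPM in pif135 (0.97 ± 0.26, adjusted p = 0.367). Among glucosinolate genes (15 tested, median -0.09, -0.36 to -0.08 over the 6 fits), ESM1, which steers glucosinolate breakdown, had 14.5, 14.3 and 18.1 CPM in pif145, against 37.7, 36.8 and 36.3 CPM in pif135. Its difference of -1.24 ± 0.38 did not pass the test (adjusted p = 0.705). It was called with the block within sets (adjusted p = 0.00682) and on the 15 libraries (0.035), not over all libraries (0.0844).

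Markers of cell types were present in both genotypes. The root hair list fell below 0 in all 10 tested members, with a median of -0.85, no (0) call and 1 gene, the root hair expansin gene EXPA7, whose groups did not overlap (-0.88 ± 0.35, adjusted p = 1). Its summed level was 17.96, 35.3 and 7.04 CPM in pif145, against 23.3, 58.1 and 25.0 CPM in pif135, so the groups overlapped. The median was -0.09 without pif135 B and -1.57 without pif145 B. The medians were 0.20 (0.04 to 0.31 when 1 library was left out) for the vascular list (6 tested), -0.14 (-0.20 to -0.03) for root tip and endodermis (5 tested) and -0.33 (-0.41 to -0.24) for the stomatal lineage (6 tested), with no (0) call. Their leading genes were IRX3 at 0.35 ± 0.25, SHR at 0.38 ± 0.24 and BASL at -0.85 ± 0.35. Copper and iron genes (13 tested) had a median of 0.09 (-0.02 to 0.11), with the copper transporter gene COPT2 at -1.04 ± 0.46. Wound, touch and jasmonate genes (15 tested) had a median of 0.13 (-0.15 without pif145 C to 0.61 without pif135 A), with MYC2 at 0.36 ± 0.17. Common reference genes (8 tested) had one of 0.01 (-0.02 to 0.12), with UBQ10 at 0.35 ± 0.20.

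The lists that followed single libraries are given apart. All 13 stress and detoxification genes were above 0 in pif145, with a median of 0.84, and none (0) was called. This list was written after the libraries had been seen, so its counts describe its members and test nothing. Without pif145 C the median was -0.56 and without pif135 A it was 3.04, when 8 of the 13 were called, beside 71 of 18899 tested loci. The camalexin and alternative oxidase list (7 tested), which shares members with it, had a median of 0.91, which was -0.24 without pif145 C and 3.23 without pif135 A. CYP71A12, of camalexin synthesis, had 8.02, 18.8 and 73.9 CPM in pif145, against 35.8, 2.85 and 0.85 CPM in pif135. Without both pif145 C and pif135 A the stress median was 1.42, with 13 of 13 above 0 and 3 called. The camalexin median was then 2.58, with 7 of 7 above 0 and 2 called, and 25 of 18890 tested loci were called. CYP71A12 was at 1.36 ± 0.75 with all libraries. It was called without pif135 A (4.13, adjusted p = 0.00402) and without both libraries (2.81, adjusted p = 0.0204), and lay at 0.04 without pif145 C. Leaving out pif135 A raised the number of calls over all loci to 71, of which 61 were higher in pif145 and 48 of those were also higher in pifq than in WT. Leaving out both pif145 C and pif135 A gave 25 calls, 20 higher and 5 lower, 16 of them among the 21.

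The low-oxygen genes were above 0 in all 13 members, with a median of 1.19, again with none (0) called. ADH1, the alcohol dehydrogenase gene induced when oxygen is short, had 97.3, 91.5 and 2.12 CPM in pif145, against 18.4, 28.8 and 6.96 CPM in pif135. The median was 0.56 without pif145 A, the lowest of the 6 fits that leave out 1 library, 1.51 at the highest, and 1.77 without both pif145 C and pif135 A. Heat shock genes (8 tested, median 0.79, 0.48 to 1.13 over the 6 fits) and flavonoid genes (7 tested, median 0.42, 0.10 to 0.55) were summed lowest within pif145 in pif145 C, at 53.6 and 27.6 CPM. HSP17.6II had 7.30, 6.49 and 0.265 CPM in pif145, against 1.84, 1.64 and 0.526 CPM in pif135. CHS, chalcone synthase, the entry to flavonoid synthesis, had 70.8, 70.4 and 4.66 CPM in pif145, against 17.401, 17.68 and 12.018 CPM in pif135. CHS was called without pif145 C (2.18, adjusted p = 0.000449), as was F3H of the same pathway (1.59, adjusted p = 0.0201). Without both pif145 C and pif135 A the flavonoid median was 0.76 and CHS alone of the list was called (2.25, adjusted p = 0.00271), and the heat shock median was 1.37. In ADH1, HSP17.6II and CHS pif145 A and B were above every pif135 library and pif145 C was below every one. Among the 13 called rises, the pif145 C value was below those of pif145 A and B for CEL2, SDR1 and AT2G25130. For the other rises, PIF3, ELIP1, ELIP2, MYB10 and PGL2 included, it lay within or above them. The part these library states play in the other results was not tested.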

How the data were processed

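RNA was measured by 3′-end sequencing in 30 libraries, 3 for each of 10 genotypes, made from 20 µg of RNA each, per the labels' protocols. The authors deposited raw read counts per locus, with reads aligned by Bowtie 0.12.7 to TAIR10, per the submitters' processing notes, which also list edgeR without a version. How reads were assigned to loci, multiply aligned reads included, is not given in the sources used here. The WT B, pif3 B and pif5 C columns were classed as estimated counts because their unnamed last value, as deposited, is not a whole number. All values of named loci are whole, so no rounding was needed. The unnamed row, at most 0.0015% of a library, was left out. Technical duplicate runs are mentioned in the labels, and each replicate has 1 column.

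All 30 libraries were fitted with edgeR 4.0.16 (quasi-likelihood test, TMM scaling, R 4.3.3) so that they share an estimate of the spread. The filter filterByExpr, at a minimum count of 10, kept 18680 of 33322 loci. P-values were adjusted by Benjamini and Hochberg within a comparison, and a call is an adjusted p under 0.05. An SE is the size of the log2 fold change divided by the root of F, and intervals are 95%. The script was tested on simulated data. Log fold changes are pif145 over pif135. Alternatives were other scalings and filters, DESeq2 1.42.0, replicate blocks, fits on 6 or 15 libraries, and leaving out libraries.

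Replicate letters were taken to pair libraries in the blocked fits because same-letter deviations from the genotype means correlated above 0.1 in all 3 pairs. The values were 0.239, 0.781 and 0.196 for A, B and C, but pif145 C with pif135 A gave 0.28, above A and C. The fit that gave the 21 calls and their p-values had no block. The sets of libraries were defined here by genotype. Blocked values are printed for named genes that gained a call in a blocked fit.

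The members, the 29 lists (442 entries, 430 genes) and the 2 lists added later were chosen with earlier results of these data known. Named genes are the 4 PIFs, up to 12 largest rises and falls that were called, reached 5 CPM on average in the higher genotype and did not overlap, the 5 smallest p in each direction, and called members of lists, or the member with the smallest p. Gene symbols, starts and promoter windows came from RefSeq's TAIR10.1, to which 32834 loci matched. The ± values and p-values measure the spread between these libraries only.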

Additional observations from a re-analysis of the deposited data

How the results depend on the processing

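The 21 calls (13 higher, 8 lower in pif145) changed with the libraries that enter the fit more than with the scaling. Total-count scaling gave 16 calls (9 and 7), all among the 21. Relative log expression scaling and the filter of 1 CPM in 3 libraries gave the same 21. With no filter there were 21 calls (14 and 7), 20 of them among the main 21. The replicate block over all libraries gave 30 calls, with 1 locus lower in both pifq and pif145. The block within sets gave 48 (24 and 24), 36 of them PIF-dependent, meaning called in pifq against WT: 22 lower in pifq and higher in pif145, 2 lower in both and 12 higher in pifq and lower in pif145. The 6 libraries alone gave 3 calls with or without the block, all higher in pif145 and lower in pifq, and 0 lower. The 15 libraries of triple mutants and pifq gave 12 (8 and 4), 11 of them PIF-dependent (8 and 3), and 21 with the block, a fit chosen after seeing the data. DESeq2 gave 37 (22 and 15), 29 of them PIF-dependent (20 and 9). An adjusted p under 0.01 left 13 (9 and 4).

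Leaving out 1 library at a time gave 11 to 71 calls, 8 to 61 higher and 3 to 10 lower. Of these 10 to 66 were PIF-dependent, with 8 to 13 lower in pifq and higher in pif145, 0 to 48 higher in both, and 2 to 6 higher in pifq and lower in pif145. The counts were 11, 12 and 20 without pif145 A, B and C, and 71, 14 and 11 without pif135 A, B and C. Without pif145 C and pif135 A together, chosen after seeing the data, there were 20 higher and 5 lower, 7 of them higher in both pif145 and pifq. Of the 21 calls, 10 were kept in all 6 leave-one-out fits, 3 in all 18 other fits, and none (0) changed sign. The uncalled PIF1 difference ranged from -0.47 (without pif145 C) to 1.69 (without pif135 A), and the uncalled PIF5 difference from -0.75 (without pif145 B) to 0.18 (without pif135 B). Of 826 fold changes of named genes under the alternatives, 730 kept direction and side of the threshold. The cause of these changes was not tested. The restricted fits had fewer libraries from which to estimate the spread. Depth limits the scarce genes: BBX23, ELIP1 and SDR1 rest on 15, 15 and 14 reads in pif135.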

Other observations

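A pair of genes outside the lists of growth, light and cell type were called with the replicate block within sets. They were not called in the edgeR fit of all libraries without a block, and they are named after their values were seen. RD20, a caleosin gene induced by drought, had 5.45, 5.59 and 1.43 CPM in pif145, against 1.92, 1.45 and 0.971 CPM in pif135. Libraries pif145 A and B were above every pif135 library while pif145 C lay within their range. The log2 fold change was 1.53 ± 0.36 (edgeR adjusted p = 0.169). With a block, the edgeR adjusted p was 0.0212 within sets, 0.104 over all libraries and 0.174 on the 15 libraries. RD20 was also called without pif145 C (1.94, adjusted p = 0.00256) and without both pif145 C and pif135 A (2.17, adjusted p = 0.00271). In pifq, RD20 averaged 1.09 CPM, against 9.31 CPM in WT.

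OCT3, which encodes an organic cation transporter, had 22.1, 21.1 and 23.0 CPM in pif145, against 39.7, 34.3 and 39.7 CPM in pif135. The groups did not overlap, and the difference was -0.78 ± 0.18 (edgeR adjusted p = 0.154). With a block, the edgeR adjusted p was 0.015 within sets, 0.047 over all libraries and 0.191 on the 15 libraries. OCT3 averaged 44.0 CPM in pifq and 21.2 CPM in WT.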
